A study of Mus musculus with 12 samples.

Results

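The gene set described here is the machinery that cuts proteins into peptides and loads them onto MHC class I molecules. It has 10 members of the 55401 gene identifiers measured, listed by gene symbol for their place in this route: Tap1, Tap2, Tapbp, Psmb8, Psmb9, Psmb10, Psme1, Psme2, Nlrc5 and Erap1. All 10 were found, and all 10 passed the filter on low values.

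Living cells positive for CD45 and CD11c were sorted from B16-OVA tumours, a mouse melanoma line that carries chicken ovalbumin as a model antigen, in mice whose genotype is labelled WT. Tumours grew for 10 days before treatment, and all cells were taken on day 17. The combined group had received 20 Gy of radiation on day 10 and a fusion protein at 20 mcg on the same day, followed by 10 mcg on day 14. The fusion protein group had the same 2 doses without radiation, the 20 Gy group had radiation without the fusion protein, and the untreated group had neither. Each group has 3 RNA-seq libraries, numbered 1 to 3 in the labels. What the fusion protein consists of, the sex, age and number of the mice, and any pooling of tumours are not stated in the labels. Nor do they state that the libraries of 1 group are from separate mice, and the p-values therefore measure the spread between these libraries, which may be technical.

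Class I molecules show peptides from inside the cell to CD8 T cells. The proteasome cuts proteins, and interferon makes cells replace its 3 catalytic subunits with Psmb8, Psmb9 and Psmb10, which form the immunoproteasome, and add the activator cap of Psme1 and Psme2. Peptides then pass through the Tap1-Tap2 transporter into the endoplasmic reticulum, where Erap1 trims them and tapasin, the product of Tapbp, holds empty class I molecules beside the transporter. Nlrc5 is a transactivator of class I genes and of several genes of this machinery. Dendritic cells, which carry CD11c, use this route to prime CD8 T cells, also with antigen taken up from tumour cells.

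The markers of the labelled population were present, beside those of other cells. All 9 markers of CD45+ CD11c+ myeloid cells, among them Ptprc (CD45), Itgax (CD11c) and the class II genes H2-Ab1 and Cd74, had reads in every library, and Itgax had normalized counts of 2226 to 9497. Transcripts of 7 T cell, 6 NK cell and 6 B cell markers were also present in every library. The 12 libraries had 14462032 to 23985496 reads in genes. Of 1754 receptor genes of smell and pheromone sensing that are silent in immune cells, 57.7%, 13.6% and 39.7% had a read in combined libraries 1, 2 and 3. The share was 25.5%, 4.79% and 19.7% in the fusion protein libraries, 79%, 59% and 13.1% in the 20 Gy libraries, and 12.6%, 5.02% and 21.3% in the untreated libraries. Combined library 1 and 20 Gy libraries 1 and 2 thus stood above 50%, and results for the members, but not the subunit ratios, are also given without them. Because these are bulk libraries, fewer cells of a type and less RNA per cell cannot be told apart.

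In the genome, 4 members lie side by side within the class II part of the major histocompatibility complex. Coordinates are of mm10 (GRCm38) from the GENCODE annotation, over whole genes with their exons, introns and untranslated parts. Psmb9 (17:34181987-34187764, minus strand), Tap1 (17:34187553-34197225), Psmb8 (17:34197721-34201454) and Tap2 (17:34203527-34216321) follow each other on chromosome 17. Tapbp lies on the same chromosome at 17:33915899-33929292. Psme1 (14:55578123-55581529) and Psme2 (14:55587441-55591113, minus strand) are neighbours on chromosome 14. Nlrc5 (8:94434356-94527272) and Psmb10 (8:105935735-105938444, minus strand) are on chromosome 8, and Erap1 is at 13:74639568-74693201. Exons of Tap1 and Psmb9 overlap by 212 bases on opposite strands, and those of Erap1 and Cast by 834. The strand setting of the counting is not stated, so reads in these stretches could belong to either gene.

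The promoter windows shown here are those of the divergent Tap1 and Psmb9 pair and of the members that hold a core of an interferon response motif. They are RefSeq windows of GRCm38.p6, from 250 bases before a start to 50 after it, and were found for 8 of the 10 members. Tap2 and Nlrc5 are named only. The Tap1 window is 17:34187306-34187605 on the plus strand and the Psmb9 window is 17:34187281-34187580 on the minus strand, so they share 275 bases read in opposite directions. The RefSeq starts lie 226 bases apart and point away from each other. In the GENCODE coordinates above, Psmb9 starts at 34187764, inside Tap1, which starts at 34187553. Capitals mark the letters of the cores of the Y box (CCAAT) and the X2 box (TGACG), or their reverse complements. These boxes are parts of the element through which Nlrc5 acts on class I promoters. In the Tap1 window the matches are at bases 29 to 33 and 165 to 169, and whether they form that element was not tested.
Tap1: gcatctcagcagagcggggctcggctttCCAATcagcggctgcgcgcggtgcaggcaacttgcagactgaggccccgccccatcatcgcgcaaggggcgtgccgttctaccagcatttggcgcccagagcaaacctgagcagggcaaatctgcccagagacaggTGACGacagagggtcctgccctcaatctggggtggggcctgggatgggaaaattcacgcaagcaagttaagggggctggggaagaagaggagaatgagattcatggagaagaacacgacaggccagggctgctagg
Psmb9: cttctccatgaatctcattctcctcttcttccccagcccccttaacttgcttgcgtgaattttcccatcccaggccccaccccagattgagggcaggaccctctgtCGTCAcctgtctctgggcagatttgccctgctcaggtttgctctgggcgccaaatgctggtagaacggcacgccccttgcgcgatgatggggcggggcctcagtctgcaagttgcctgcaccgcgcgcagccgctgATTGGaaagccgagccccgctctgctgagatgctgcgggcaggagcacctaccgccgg

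Shorter stretches of 3 members hold the other cores, with the match in capitals. In Psmb8 (17:34198058-34198146, plus strand) it is the core of the gamma-activated site, TTCNNNGAA, an element of interferon gamma response. In Psme1 (14:55578463-55578543, plus strand) and Erap1 (13:74639809-74639898, plus strand) it is the core of the interferon-stimulated response element, GAAA, any 2 bases and GAAA again, here as its reverse complement, an element of type I interferon response.
Psmb8: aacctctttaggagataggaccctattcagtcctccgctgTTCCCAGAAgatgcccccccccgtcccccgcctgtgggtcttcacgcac
Psme1: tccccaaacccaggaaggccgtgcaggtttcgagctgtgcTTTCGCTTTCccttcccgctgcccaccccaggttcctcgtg
Erap1: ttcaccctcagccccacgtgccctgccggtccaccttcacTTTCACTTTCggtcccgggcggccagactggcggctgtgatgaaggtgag

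Searched on both strands, the response element core was in 2 of the 8 members with a window (Psme1 and Erap1) and in 3.4% of 32851 promoter windows of the same length. A member counted if any of its windows held the core, so its share is per gene and the other per window. The gamma-activated core was in 1 of 8 (Psmb8) and in 8.3% of all windows. CCAAT was in 3 of 8 (Tapbp, Psmb9 and Tap1) and in 37.4% of all, and TGACG was in 3 of 8 (Psme2, Psmb9 and Tap1) and in 20.8% of all. The Tap1 and Psmb9 matches are the same bases on the shared stretch. A match is a description of letters and not a binding site.

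The route was well expressed in all 12 libraries, with 545 to 13621 reads per member and library. Exon length here is the merged length of all annotated exons of a gene, such as 2209 bases for Psme1, 3381 for Psmb8 and 3660 for Psmb9. It can exceed the length of the transcripts present, so the order of genes below depends on this choice. Per kilobase of exon, Psme1 had the highest level in every group, with 5012 ± 312 normalized counts per kb in combined libraries, 4681 ± 137 with the fusion protein, 3255 ± 1120 after 20 Gy and 3340 ± 698 in untreated libraries (SD, n = 3 each). Every library of a group stood above that group's next gene there. Psme2, Tapbp and Psmb8 followed, at 1221 to 2308 normalized counts per kb as group means, and neighbours among them in the order overlapped. Tap1 had rank 5 in every group. Nlrc5 had rank 6 in both fusion protein groups, at 1045 ± 193 normalized counts per kb in combined and 991.8 ± 199 in fusion protein libraries. It had rank 8 after 20 Gy, at 444.7 ± 44.3, and rank 7 in untreated libraries, at 530.5 ± 65.7, and overlapped the gene ranked next below it in 3 of the 4 groups, the 20 Gy group being the exception. Erap1 was lowest in combined, fusion protein and 20 Gy libraries. In untreated libraries Psmb9 was lowest, at 228.4 ± 40 per kb, and overlapped Erap1 at 250 ± 31.6.

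Over the whole design, the clearest difference followed the fusion protein. The average of its effect with and without radiation, 6 libraries against 6, was fitted with limma on the log2 of the normalized count plus 1, and p-values were adjusted over 18274 genes by the Benjamini-Hochberg method, with a threshold of 0.05. Nlrc5 and Psmb9 rose, so 2 of 10 members passed, where 2.07% of all tested genes passed as higher. The log2 fold changes of 9 of 10 members were above 0, with a median of 0.63 against −0.02 over all tested genes. Erap1 was the exception, at −0.14.

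Nlrc5, the transactivator, had 10148, 7029 and 9443 normalized counts in combined libraries 1 to 3, and 10200, 8236 and 6834 in fusion protein libraries. It had 3530, 3591 and 4210 in 20 Gy libraries and 4043, 4348 and 5126 in untreated ones. All 6 libraries with the fusion protein were above all 6 without it, and the lowest value with it, in fusion protein library 3, was above the highest without it, in untreated library 3. Its log2 fold change was 1.05 ± 0.14 (SE), a fold of 2.08, with an adjusted p of 0.00168 in limma. It passed in 12 of 12 fits that left out 1 library each, with adjusted p from 0.00182 to 0.0086. Without the 3 libraries above 50% of silent receptor genes it had a log2 fold change of 0.92 and did not pass (limma adjusted p = 0.128).

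**Figure D1:**
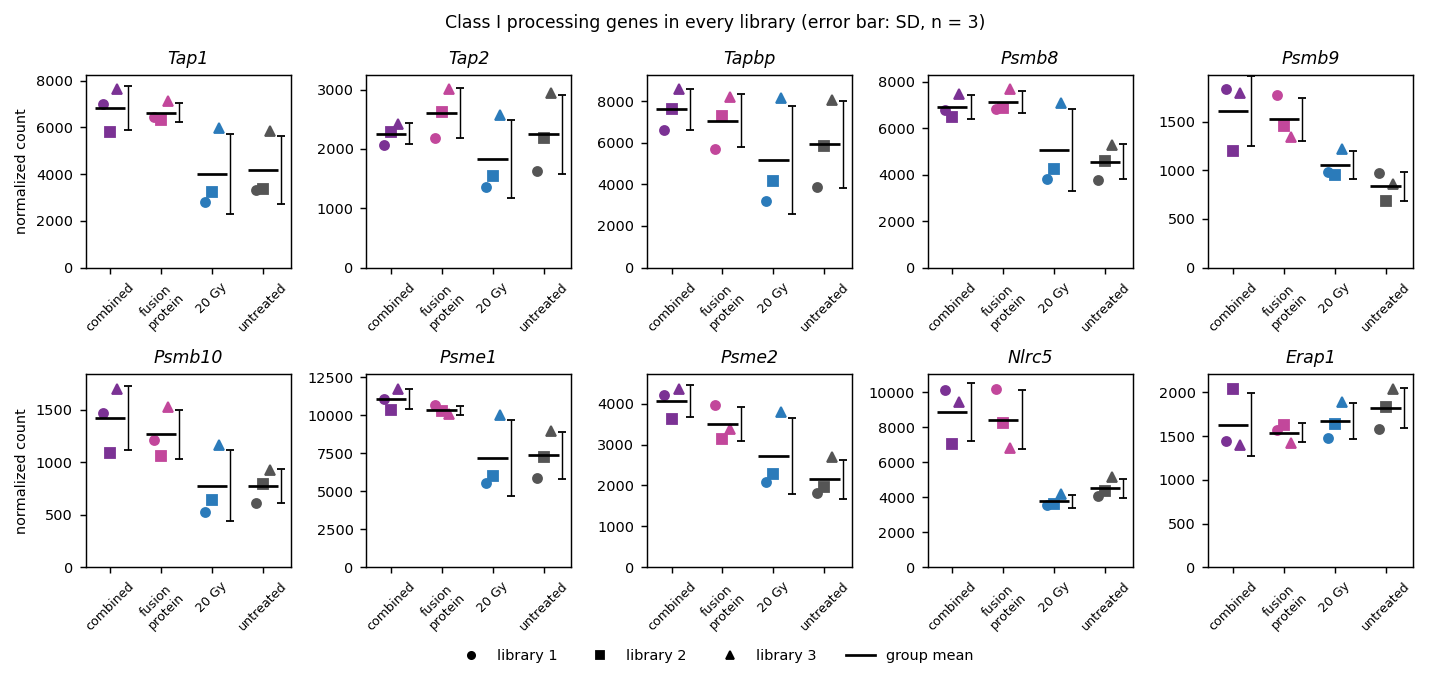
Normalized counts (y axis, linear, from 0) of the 10 members in each library, by group; symbols give library numbers 1 to 3, the bar is the group mean and the error bar the SD (n = 3). Nlrc5 lay between 6834 and 10200 in the 6 libraries with the fusion protein and between 3530 and 5126 in the 6 without it, while Erap1 overlapped across all groups.

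The 3 inducible catalytic subunits differed in how sharply the groups parted. Psmb9, the caspase-like position, had 1839, 1198 and 1795 normalized counts in combined libraries and 1772, 1457 and 1347 in fusion protein libraries. It had 983, 957 and 1225 in 20 Gy libraries and 971, 680 and 857 in untreated ones. Only combined library 2 and 20 Gy library 3 overlapped across the 2 sides of this comparison. The log2 fold change of Psmb9 was 0.73 ± 0.15, a fold of 1.66, with an adjusted p of 0.0241 in limma. Leaving out 1 library at a time, it passed in 6 of 12 fits. It did not pass without combined library 1, combined library 3, fusion protein library 1, 20 Gy library 1, 20 Gy library 2 or untreated library 2, with limma adjusted p of 0.0562 to 0.0785 and log2 fold changes of 0.66 to 0.71. Without the 3 libraries above 50% of silent receptor genes Psmb9 had 0.57 on the log2 scale (limma adjusted p = 0.436), and 0 of 10 members passed. It also failed to pass with no filter on low values (limma adjusted p = 0.0555).

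Psmb8, the chymotrypsin-like position, had 6803, 6468 and 7459 normalized counts in combined libraries, 6821, 6882 and 7695 in fusion protein libraries, 3823, 4248 and 7097 in 20 Gy libraries, and 3789, 4602 and 5292 in untreated libraries. 20 Gy library 3 lay within the range of the fusion protein groups, and the other 5 libraries without the fusion protein lay below it. Its log2 fold change of 0.58 did not pass (limma adjusted p = 0.0844). Psmb10, the trypsin-like position, had 1467, 1092 and 1700 normalized counts in combined, 1207, 1062 and 1525 in fusion protein, 530, 639 and 1163 in 20 Gy, and 607, 793 and 924 in untreated libraries. Again 20 Gy library 3 overlapped the groups with the fusion protein. The log2 fold change was 0.82 (limma adjusted p = 0.0638).

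The 2 cap subunits showed a like order of libraries. Psme1, the alpha subunit, had 11078, 10380 and 11757 normalized counts in combined, 10668, 10285 and 10068 in fusion protein, 5536, 5990 and 10042 in 20 Gy, and 5902, 7253 and 8979 in untreated libraries. All 6 libraries with the fusion protein were above all 6 without it, and the gap between the 2 sides, 10068 in fusion protein library 3 against 10042 in 20 Gy library 3, was narrow. This complete separation held for 2 of 10 members, Nlrc5 and Psme1, and for 1.86% of all tested genes. The log2 fold change of Psme1 was 0.59 and did not pass (limma adjusted p = 0.0857). Psme2, the beta subunit, had 4209, 3636 and 4368 normalized counts in combined, 3967, 3142 and 3389 in fusion protein, 2086, 2282 and 3791 in 20 Gy, and 1810, 1953 and 2700 in untreated libraries. 20 Gy library 3 again lay within the range of the libraries with the fusion protein. The log2 fold change of Psme2 reached 0.67 (limma adjusted p = 0.0562, and 0.0472 after scaling by TMM). Psme2b, a copy of Psme2 on chromosome 11, averaged 1225 ± 71.1, 921.4 ± 322, 558.4 ± 250 and 496.6 ± 223 normalized counts in the same order of groups (SD, n = 3 each), and reads of the pair could be split between them, so Psme2 values are uncertain.

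Of the transport and loading genes, Tap1 followed the pattern of the subunits. Tap1, one chain of the transporter, had 7021, 5810 and 7651 normalized counts in combined, 6446, 6336 and 7111 in fusion protein, 2795, 3239 and 5977 in 20 Gy, and 3314, 3350 and 5854 in untreated libraries. Libraries 3 of the 20 Gy and untreated groups lay far above their group's other 2 and next to combined library 2. Over both settings Tap1 had a log2 fold change of 0.78 (limma adjusted p = 0.073). Tap2, the partner chain, had 2062, 2282 and 2418 normalized counts in combined, 2177, 2616 and 3013 in fusion protein, 1358, 1550 and 2577 in 20 Gy, and 1619, 2180 and 2941 in untreated libraries, and all groups overlapped. Tapbp had 6622, 7641 and 8603 in combined, 5689, 7293 and 8227 in fusion protein, 3226, 4169 and 8140 in 20 Gy, and 3894, 5850 and 8069 in untreated libraries. Here too the groups overlapped, with log2 fold changes of 0.30 for Tap2 (limma adjusted p = 0.552) and 0.48 for Tapbp (limma adjusted p = 0.406). Erap1, the trimming peptidase, had 1439, 2044 and 1404 normalized counts in combined, 1572, 1627 and 1420 in fusion protein, 1481, 1644 and 1887 in 20 Gy, and 1583, 1835 and 2042 in untreated libraries (log2 fold change −0.14, limma adjusted p = 0.728). It was the only member of the 10 whose mean was lowest in the fusion protein group.

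The fusion protein alone was set against untreated tumours. Of 10 members 0 passed in limma, where 0.586% of all tested genes passed as higher, and 6 of 10 had an unadjusted p under 0.05, against 4.81% of all tested genes. In 7 of 10 every fusion protein library was above every untreated one, against 5.94% of all tested genes. These were Tap1, Psmb8, Psmb9, Psmb10, Psme1, Psme2 and Nlrc5. The largest log2 fold changes were 0.89 ± 0.20 for Nlrc5 (limma adjusted p = 0.0862) and 0.87 ± 0.22 for Psmb9 (limma adjusted p = 0.124). Libraries with the same number deviated together in these groups, and with the number as a block Nlrc5 (limma adjusted p = 0.018), Psmb9 (limma adjusted p = 0.0123) and Psmb8 (limma adjusted p = 0.0431) rose, 3 of 10 members against 2.28% of all tested genes. The block was fitted over all 12 libraries and not over these groups alone. Within library numbers the fusion protein library was higher in 3 of 3 for 9 members and in 0 of 3 for Erap1. The share of all tested genes higher in 3 of 3 was not computed, so this count is a description only. For Nlrc5 the differences within numbers were 1.33, 0.92 and 0.41 on the log2 scale for numbers 1, 2 and 3, and for Psmb9 they were 0.87, 1.10 and 0.65.

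When the fusion protein was added to radiation, Nlrc5 rose with a log2 fold change of 1.22 ± 0.20, a fold of 2.33 (limma adjusted p = 0.013). It averaged 8873 ± 1640 normalized counts in combined and 3777 ± 377 in 20 Gy libraries (SD, n = 3 each). It was the only one of 10 members to pass, where 0.843% of all tested genes passed as higher. The other 9 had log2 fold changes of −0.05 (Erap1) to 0.93 (Psmb10) with limma adjusted p from 0.271 to 0.989. Nlrc5 and Psme1 were the 2 members whose combined libraries all exceeded the 20 Gy libraries, against 8.36% of all tested genes.

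The Nlrc5 call in this comparison rested on each of 4 libraries. It did not pass without combined library 1 (log2 fold change 1.11, limma adjusted p = 0.0881), combined library 3 (1.17, limma adjusted p = 0.0885), 20 Gy library 1 (1.17, limma adjusted p = 0.077) or 20 Gy library 2 (1.18, limma adjusted p = 0.085). Without the 3 libraries above 50% of silent receptor genes, which leaves 1 library in the 20 Gy group whose spread is assumed to be like the others', it was 0.95 (limma adjusted p = 0.72). The other members' differences lay mostly in 20 Gy libraries 1 and 2, and 20 Gy library 3 was near the combined level. The median member log2 fold change was 0.11 without the 3 libraries above 50%, against 0.65 with all libraries. Without 20 Gy library 3, 3 of 10 members passed, Nlrc5, Psme1 (0.94, limma adjusted p = 0.0438) and Psmb10 (1.26, limma adjusted p = 0.048), where 1.10% of all tested genes did. Without all 4 libraries numbered 3, Nlrc5 had 1.25 and did not pass (limma adjusted p = 0.0514), while Tap1 did (1.09, limma adjusted p = 0.0326).

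**Figure D2:**
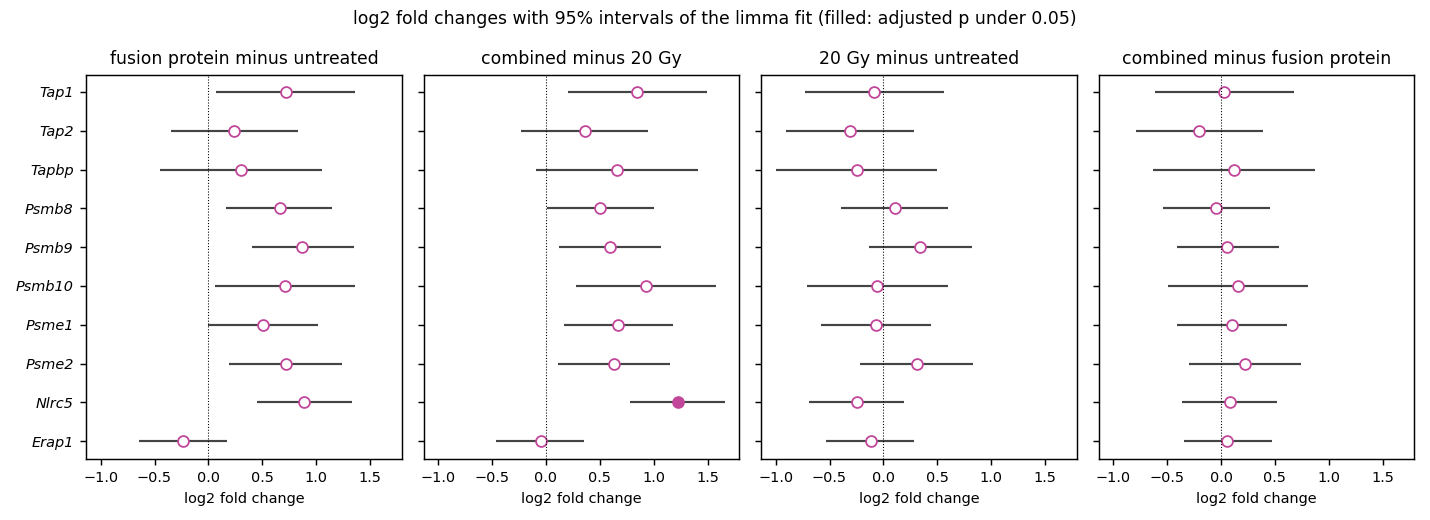
Log2 fold changes (x axis) of the 10 members in 4 comparisons, with 95% intervals of the limma fit; filled points have an adjusted p under 0.05. Only Nlrc5 in the combined against 20 Gy comparison, at 1.22, is filled among these 4 panels, and both panels on the right are spread around 0.

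Radiation alone moved no member past the test. Between 20 Gy and untreated libraries 0 of 10 members passed in limma, where 0.00% of all tested genes passed; 1231 genes had an unadjusted p under 0.05, edgeR called 0 genes and DESeq2 45. Log2 fold changes of the members ran from −0.31 for Tap2 to 0.34 for Psmb9, with a median of −0.08 against 0.04 over all tested genes. In 0 of 10 members was every 20 Gy library above every untreated one or every one below, against 6.73% and 4.79% of all tested genes. The 95% intervals were wide enough to include, for Nlrc5, a log2 fold change from −0.69 to 0.19, for Psmb9 from −0.13 to 0.82 and for Tapbp from −1 to 0.50. Without 20 Gy libraries 1 and 2 and combined library 1, only 1 library is left after 20 Gy, and 6 of the members changed sign, among them Psmb10 at 0.61 and Tap1 at 0.57.

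Adding radiation to the fusion protein gave the narrowest range of differences. Between combined and fusion protein libraries 0 of 10 members passed in limma (0.00% of all tested genes), the log2 fold changes ran from −0.20 for Tap2 to 0.22 for Psme2, and the median was 0.07 against 0.03 over all tested genes. In this comparison 534 of all genes had an unadjusted p under 0.05, edgeR and DESeq2 called 0 genes each, and no member was among the 534. The interval for Nlrc5, at 0.08, ran from −0.36 to 0.52, and that for Psmb9, at 0.06, from −0.41 to 0.54. The test of whether the fusion protein acted differently with and without radiation gave log2 differences of −0.28 (Psmb9) to 0.37 (Tapbp), and 0 of 10 members and 0.00% of all genes passed in limma. At an unadjusted p under 0.05 there were 188 genes and none of the members, edgeR called 0 and DESeq2 1.

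Combined treatment against no treatment shares the untreated libraries with the fusion protein comparison above, so the values are set side by side only. Nlrc5 rose, with a log2 fold change of 0.97 ± 0.20 (limma adjusted p = 0.0389), 1 of 10 members where 1.21% of all tested genes passed as higher. Psmb9 at 0.93 (limma adjusted p = 0.0677) and Psme2 at 0.94 (limma adjusted p = 0.0979) were of similar size and did not pass. In 6 of 10 members, Psmb8, Psmb9, Psmb10, Psme1, Psme2 and Nlrc5, every combined library was above every untreated one, against 10.3% of all tested genes. With the library number as a block 6 of 10 passed, where 5.24% of all tested genes did. They were Psmb9 (limma adjusted p = 0.00512), Nlrc5 (0.00725), Psme2 (0.00903), Psmb10 (0.0165), Tap1 (0.0299) and Psmb8 (0.0354). Without the block, Nlrc5 passed in 1 of 6 fits that left out a library, the one without combined library 2, and the other 5 had limma adjusted p from 0.0611 to 0.206. Without the 3 libraries above 50% of silent receptor genes, of which combined library 1 belongs to this pair, Nlrc5 had 0.86 (limma adjusted p = 0.36).

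Within groups, many members were highest in library 3, most clearly in the 20 Gy and untreated groups. In the 20 Gy group all 10 members were highest in library 3, at 1.18 to 2.20 times the mean of libraries 1 and 2, with a median of 1.75. In the untreated group 9 of 10 were, Psmb9 being the exception, with a median of 1.34. In combined libraries 7 of 10 and in fusion protein libraries 5 of 10 were highest in library 3, with medians of 1.12 and 1.04. The share of all tested genes highest in library 3 was not computed. Over all tested genes, the median log2 level minus the untreated mean was 0.1, 0.07 and 0.02 in 20 Gy libraries 1 to 3. For the members it was −0.37, −0.27 and 0.54. Of the 12 libraries, 20 Gy library 3 had the lowest size factor, 0.7641, and the highest share of mitochondrial reads, 18.57%. In the 20 Gy group the ratio was highest for Tapbp, at 2.20, and lowest for Nlrc5, at 1.18. In untreated libraries it was highest for Tap1, at 1.76, and in combined and fusion protein libraries for Psmb10, at 1.33 and 1.34.

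Ifng, Irf1, tumour transcripts and B cell transcripts differed in that library. Ifng, the gene of interferon gamma, had 635, 818 and 1390 normalized counts in combined, 1190, 633 and 2213 in fusion protein, 216, 248 and 878 in 20 Gy, and 365, 467 and 2681 in untreated libraries. Irf1, a transcription factor induced by it, was 2.17, 2.52, 3.18 and 3.05 times the mean of libraries 1 and 2 in library 3 of the same groups. The summed level of 6 melanoma markers was 35.1, 217.1 and 878.7 normalized counts in combined, 19, 9.1 and 4030 in fusion protein, 53.7, 41.8 and 14554.7 in 20 Gy, and 8.2, 15 and 1615.9 in untreated libraries, with 3 of the 6 at 0 in at least 1 library. It was highest in library 3 of every group. The 6 B cell markers were lowest there, with sums of 12966, 16656 and 7254 normalized counts in combined, 17594, 26370 and 2282 in fusion protein, 15051, 13807 and 3154 in 20 Gy, and 22273, 13317 and 3976 in untreated libraries. Library 3 of Stat2 and Irf9, other genes of interferon signalling, was at 1.24, 0.73, 0.99 and 0.70 times and 1.13, 0.93, 1.2 and 1.1 times the mean of libraries 1 and 2 in combined, fusion protein, 20 Gy and untreated groups. The part of these transcripts in the members' levels was not tested. The median member log2 fold change for the fusion protein over both settings was 0.36 without the 3 libraries above 50% of silent receptor genes, against 0.63 with all. Without the 4 libraries numbered 3, the median member log2 fold change for the fusion protein over both settings was 0.80, and 6 of 10 members passed: Tap1, Psmb8, Psmb10, Psme1, Psme2 and Nlrc5, where 2.64% of all tested genes did. Psmb9 then had a larger log2 fold change of 0.80 and did not pass (limma adjusted p = 0.0788).

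Some NK cell transcripts moved with the fusion protein beside the members. The summed level of 6 NK cell markers, none at 0 in any library, was 33820, 37791 and 38537 normalized counts in combined and 60494, 30968 and 54569 in fusion protein libraries. It was 10627, 11577 and 16366 in 20 Gy and 19430, 19321 and 21777 in untreated libraries, so the 6 libraries with the fusion protein were above the 6 without it. Gzma and Prf1, genes of cytotoxic granules that T cells also use, parted the 2 sides in the same way, with Gzma at 13491 to 32805 in libraries with the fusion protein, against 3491 to 6594 without it. The other 4 markers, Ncr1, Klrb1c, Klrk1 and Eomes, overlapped. NK cells of mice can carry CD11c and use the same class I route. The 9 markers of the sorted myeloid cells summed to 113317 to 129354 in combined and 65503 to 129871 in fusion protein libraries, against 177129 to 200818 in 20 Gy and 128604 to 214053 in untreated ones. Ptprc and the class II genes Cd74 and H2-Ab1 had the highest levels of the 9. Cd74, H2-Ab1 and Flt3 were lower in all libraries with the fusion protein than in those without it. Ptprc, Itgax, Itgam, Zbtb46, Adgre1 and Csf1r overlapped. The part of these NK cell and myeloid marker differences in the members' levels was not tested. The 7 T cell markers summed to 5536 to 14427, 8410 to 19974, 3988 to 9242 and 6119 to 22791 in the same order of groups and overlapped.

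Within a library, the balance of inducible and constitutive catalytic subunits compares 2 genes of 1 particle. Psmb5, Psmb6 and Psmb7 encode the subunits that Psmb8, Psmb9 and Psmb10 replace. Exon length is again the merged one, so the size of a ratio depends on it, while its comparison between libraries does not. Per kilobase of exon, the Psmb10 over Psmb7 ratio was 3.217, 2.223 and 3.022 in combined, 3.149, 3.998 and 3.194 in fusion protein, 1.527, 1.871 and 1.954 in 20 Gy, and 2.105, 2.317 and 1.906 in untreated libraries. It was 1.6-fold higher with the fusion protein, a log2 difference of 0.68, by an exact two-sided permutation test within radiation settings (p = 0.005, the smallest the 400 arrangements allow, adjusted p = 0.015 over the 3 ratios). Combined library 2 was below untreated library 2, and the other 5 libraries with the fusion protein were above all 6 without it.

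The Psmb8 over Psmb5 ratio was 4.462, 5.36 and 4.671 in combined, 4.844, 5.132 and 4.587 in fusion protein, 3.576, 3.686 and 4.697 in 20 Gy, and 3.811, 4.085 and 4.001 in untreated libraries. It was also higher with the fusion protein, by a log2 difference of 0.29 (exact permutation p = 0.015, adjusted p = 0.0225), with 20 Gy library 3 inside the range of the libraries that had it. The Psmb9 over Psmb6 ratio averaged 0.625 ± 0.105, 0.696 ± 0.203, 0.555 ± 0.114 and 0.513 ± 0.158 in combined, fusion protein, 20 Gy and untreated libraries (SD, n = 3 each). Its log2 difference of 0.31 did not pass (exact permutation p = 0.145, adjusted p = 0.145). The constitutive partners Psmb5, Psmb6 and Psmb7 themselves had log2 fold changes of 0.29, 0.43 and 0.14, and none passed (limma adjusted p = 0.412, 0.358 and 0.846).

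**Figure D3:**
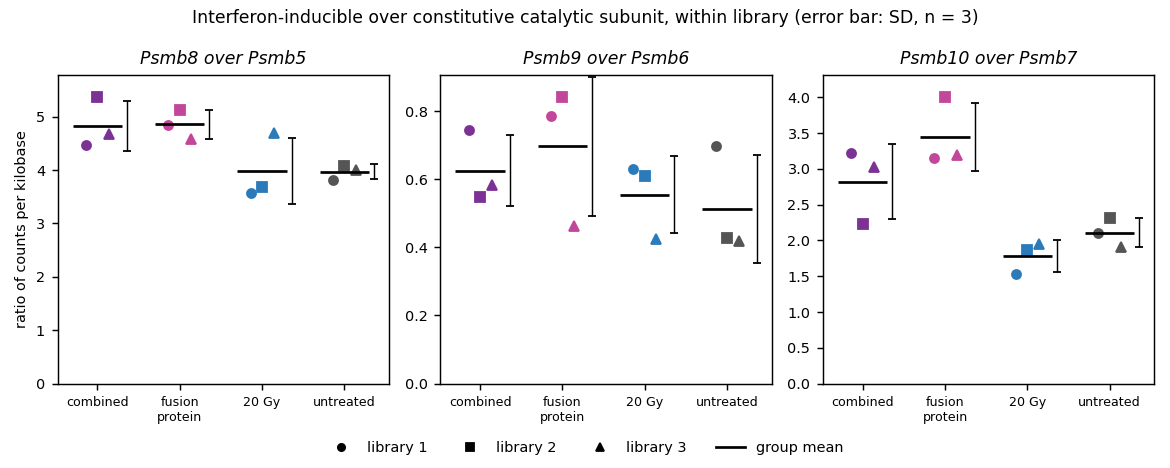
Ratio of exon-length-scaled normalized counts of each inducible subunit to the constitutive subunit it replaces (y axis, linear, from 0) in every library, with group means and SD (n = 3). Psmb10 over Psmb7 averaged 2.82 and 3.447 in the groups with the fusion protein, against 1.784 and 2.109 in the 20 Gy and untreated groups.

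Other genes of the pathway moved less as lists. Among 17 further genes of the class I route, from chaperones to class I chains, only H2-K1 rose with the fusion protein, 13 of 17 had log2 fold changes above 0, and the median was 0.12. H2-K1, a class I heavy chain, had 47509, 44299 and 52412 normalized counts in combined, 49545, 50669 and 50498 in fusion protein, 15855, 18913 and 31044 in 20 Gy, and 20652, 27120 and 33392 in untreated libraries. All 6 with the fusion protein were above all 6 without it, and the log2 fold change was 1.05 ± 0.19 (limma adjusted p = 0.00966). H2-D1 parted in the same way, so this held for 2 of 17 genes, against 1.86% of all tested genes. H2-D1, another class I heavy chain whose sequence is close to that of H2-K1 so that shared reads are possible, had 0.69 (limma adjusted p = 0.0985), and B2m, the light chain, 0.81 (limma adjusted p = 0.122).

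Of 21 constitutive proteasome genes 0 passed in limma, with 7 at an unadjusted p under 0.05, all higher, against 1373 of the 18274 tested genes. Log2 fold changes were above 0 in 21 of 21, against 8738 of all tested genes, and the median was 0.31 against −0.02. Psmb4, Psma6 and Psma5, subunits of the core particle, had the smallest p, at log2 fold changes of 0.48, 0.34 and 0.47 (limma adjusted p = 0.145, 0.158 and 0.171). Psme3, which forms another cap, had 0.09.

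Of 23 regulators, Irf9 and Stat2, which act together in type I interferon signalling, rose, and the median was 0.12. Irf9 had 3322, 2862 and 3501 normalized counts in combined, 3428, 3045 and 2996 in fusion protein, 1660, 1849 and 2099 in 20 Gy, and 1919, 1558 and 1914 in untreated libraries. Stat2 had 9126, 4153 and 8240 in combined, 6594, 3238 and 3607 in fusion protein, 1712, 1666 and 1666 in 20 Gy, and 2036, 871 and 1012 in untreated libraries. For both, all 6 libraries with the fusion protein were above the 6 without it. Nfyb parted in the same way, so this held for 3 of 23 regulators, against 1.86% of all tested genes. The log2 fold changes were 0.80 ± 0.11 for Irf9 (limma adjusted p = 0.00218) and 1.91 ± 0.27 for Stat2 (limma adjusted p = 0.00234). Nfyb, a subunit of the factor that binds CCAAT, had 0.50 ± 0.12 and did not pass (limma adjusted p = 0.0553). Irf1 had 0.76 ± 0.42 (limma adjusted p = 0.466) and Ifng 0.97 ± 0.54 (limma adjusted p = 0.476), and neither passed.

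**Figure D4:**
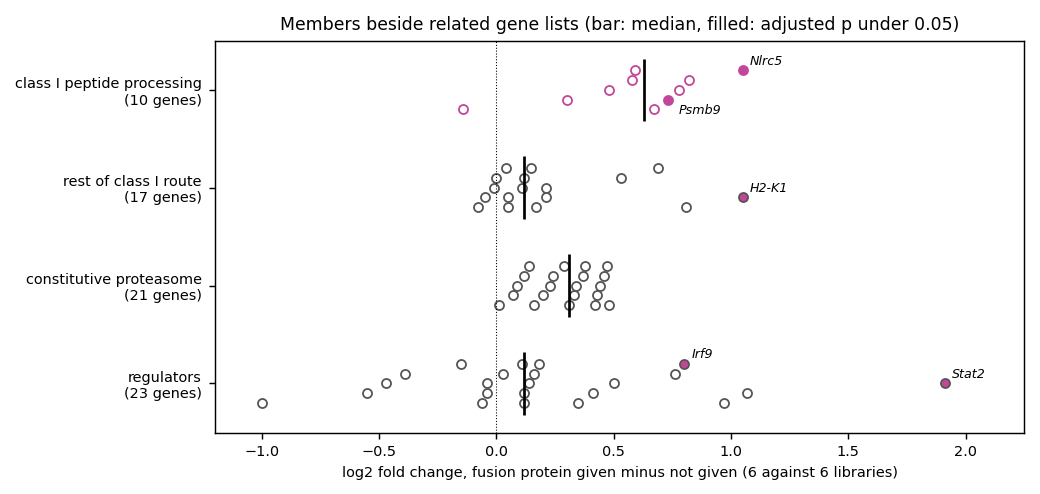
Log2 fold change for the fusion protein over both radiation settings (x axis), 1 point per gene, for the 10 members and 3 lists of related genes; bars are list medians and filled points have a limma adjusted p under 0.05. The median of the members is 0.63, against 0.12, 0.31 and 0.12 in the other lists, and 2, 1, 0 and 2 genes are filled.

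The members did not follow 1 pattern across the 12 libraries. The Pearson correlation of a member's log2 level with the mean of the other 9 was 0.993 for Psme1, 0.979 for Tap1, 0.964 for Psmb8 and 0.942 for Psmb10. It was 0.784 for Nlrc5, 0.649 for Psmb9 and −0.117 for Erap1. These libraries share groups, depth and the library number, so the values are a description. Outside the members and lists, the 6 genes whose levels were most like the members' mean were Ogfr, Igtp, Tgtp1, H2-T23, Gbp3 and Iigp1, with Pearson correlations of 0.981, 0.979, 0.975, 0.973, 0.969 and 0.963 over the 12 libraries. Igtp, Tgtp1, Gbp3 and Iigp1 encode interferon-induced GTPases and H2-T23 a nonclassical class I chain. Iigp1 had 4914, 2771 and 7030 normalized counts in combined, 3188, 962.4 and 2941 in fusion protein, 85.4, 157.5 and 1237 in 20 Gy, and 107.8, 230.9 and 863.8 in untreated libraries.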

How the data were processed

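Per the submitters' processing notes, the authors used FastQC, Trimmomatic, STAR, featureCounts and DESeq2 with build mm10; roles, versions and settings are not stated there. The deposited signal values are normalized counts, which the authors made with DESeq2, per the same notes, as read counts divided by a size factor per library. Multiplying by the recovered factors gave whole reads within 0.001 in 100% of values (largest deviation 1.4e-08). GENCODE vM21 gave symbols to 55141 of 55401 identifiers (99.53%). Per the labels, libraries came from a stranded total RNA kit.

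The filter, a normalized count of 10 or more in 3 or more libraries, left 18274 genes. For these, log2 of the count plus a pseudocount of 1 was fitted with limma 3.58.1 (R 4.3.3, variance trend, 8 residual degrees of freedom), with all 12 libraries in 4 groups and two-sided p-values. The count test on the recovered reads with edgeR 4.0.16 called 110, 152, 0, 200, 0, 589 and 0 genes for fusion protein against untreated, combined against 20 Gy, 20 Gy against untreated, combined against untreated, combined against fusion protein, the fusion protein over both settings and the interaction. limma called 136, 188, 0, 256, 0, 602 and 0. DESeq2 1.42.0, other scaling, filter and pseudocount, the number block, the compared libraries alone, each library left out and all libraries numbered 3 left out were tried too. Leaving out the 3 libraries above 50% of silent receptor genes was chosen after seeing the data. The limma fits with and without the block, edgeR and DESeq2 were run on simulated counts, for the fusion protein over both settings only. Other steps were not.

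The labels do not say what the library number stands for. Against the untreated group, deviations of same-numbered libraries had correlations of 0.473 to 0.621 for the fusion protein, of 0.156 to 0.496 for 20 Gy and of 0.334 to 0.389 for combined treatment. Between combined and fusion protein libraries they were 0.41 to 0.484, and between combined and 20 Gy libraries 0.01 to 0.505. For number 2, the 0.156 of 20 Gy against untreated was below its highest correlation with another number, 0.351. The 0.01 of number 2 in combined against 20 Gy was below 0.116 in the same way. In these comparisons and over both settings the block is therefore given only in the closing section. A single block fit covered all 12 libraries, so its results for the other comparisons also draw on these libraries. The 10 members and the lists were chosen with earlier results of these data known. Named beside the members were, per list, the 3 genes of smallest p and any that passed, the 3 constitutive subunits and the 6 genes of most similar pattern. Irf1, Ifng, Tapbpl, Psme3, Psme2b and single markers are named for their role, after their values were seen. 1 gene of the regulator list is not reported here.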

Additional observations from a re-analysis of the deposited data

How the results depend on the processing

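Nlrc5 and Psmb9 kept their direction for the fusion protein over both settings under every alternative run. Counts of members and genes called depended on the setting. DESeq2 called 2 members and 464 genes for fusion protein against untreated, 550 genes for combined against 20 Gy, 45 genes for 20 Gy against untreated, 3 members and 755 genes for combined against untreated, 7 members and 1339 genes for the fusion protein over both settings, and 1 gene for the interaction. With it 60.9% of calls for combined against 20 Gy were higher, against 81.9% in limma, and 73% against 86.3% for combined against untreated. With the replicate block the counts were 3 members and 602 genes, 3 and 834, 0 and 70, 6 and 1413, and 8 and 1989 for the first 5 of these comparisons, and it called no member in the other 2. The members it added were Tap1 and Psmb10 for combined against 20 Gy, and Tap1, Tapbp, Psmb8, Psmb10, Psme1 and Psme2 over both settings, with limma adjusted p of 0.00205 to 0.0327. Over both settings it called 4 genes of the class I route, 7 of the constitutive proteasome and 8 regulators as higher and 2 regulators as lower, among them Irf1 (limma adjusted p = 0.000594), Ifng (0.0231) and B2m (0.00194), which did not pass without it. Without the filter on low values, combined against untreated had 0 members and the fusion protein over both settings 1. With the compared libraries alone, fusion protein against untreated had 18 genes, and combined against untreated 0 members and 149 genes. Without the 4 libraries numbered 3, combined against untreated had 168 genes and the fusion protein over both settings 6 members and 483 genes. Without the 3 libraries above 50% of silent receptor genes, fusion protein against untreated had 50 genes, combined against 20 Gy 0 members and 0 genes, combined against untreated 0 and 80, and the fusion protein over both settings 0 and 87. By exact same-number sign flips, a form of the block over 6 pairs whose smallest p is 0.0312, the ratio differences were 0.29 for Psmb8 over Psmb5 and 0.68 for Psmb10 over Psmb7. Psmb10 over Psmb7 reached that smallest p, with 6 of 6 differences positive, and neither passed after adjustment over the 3 ratios (adjusted p = 0.0938). The causes were not tested.

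Leaving out 1 library at a time, members and genes called ranged from 0 to 3 and 76 to 201 for combined against 20 Gy, 0 to 2 and 93 to 278 for combined against untreated, 1 to 7 and 339 to 648 for the fusion protein over both settings, and 0 and 46 to 178 for fusion protein against untreated, and stayed at 0 for the other 3. Over both settings, 7 members were called without 20 Gy library 3 and 4 without untreated library 3. Genes called in these fits lay within the 339 to 648 given above, of 18274 tested genes. The log2 ratio differences ranged from 0.25 to 0.35, 0.22 to 0.44 and 0.62 to 0.76 for Psmb8, Psmb9 and Psmb10.

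Signs turned in these cases. Combined against untreated Tap2 was 0.00 in edgeR and 20 Gy against untreated Psmb10 was 0.01 in DESeq2. Without the 4 libraries numbered 3, Erap1 was 0.14, 0.01 and 0.02 for combined against 20 Gy, combined against untreated and both settings, Psmb8 was −0.05 for 20 Gy against untreated and 0.00 for the interaction, and Tap1, Psmb9 and Nlrc5 were 0.00, −0.11 and −0.12 for combined against fusion protein. Without the 3 libraries above 50%, combined against 20 Gy was −0.13 for Tap2, −0.01 for Tapbp and −0.03 for Psmb8, against 0.36, 0.66 and 0.50 with all libraries. 20 Gy against untreated was then 0.57 for Tap1, 0.24 for Tap2, 0.52 for Tapbp, 0.61 for Psmb10, 0.47 for Psme1 and 0.06 for Erap1. Combined against fusion protein was −0.05 for Psmb9 and −0.03 for Nlrc5, and the interaction −0.56 for Tap1, −0.37 for Tap2, −0.30 for Tapbp, −0.48 for Psmb10 and −0.37 for Psme1.

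Left-out libraries turned signs within these ranges. Combined against 20 Gy Erap1 ran from −0.23 to 0.05 and combined against untreated Tap2 from −0.17 to 0.26. 20 Gy against untreated ran from −0.42 to 0.18 for Tap1, −0.63 to 0.04 for Tapbp, −0.17 to 0.28 for Psmb8, −0.39 to 0.18 for Psmb10 and −0.34 to 0.09 for Psme1. Combined against fusion protein ran from −0.05 to 0.15 for Tap1, −0.03 to 0.23 for Tapbp, −0.10 to 0.01 for Psmb8, −0.05 to 0.26 for Psmb9, −0.06 to 0.24 for Nlrc5 and −0.11 to 0.16 for Erap1. The interaction ran from −0.15 to 0.45 for Tap1, −0.10 to 0.39 for Tap2, −0.33 to 0.12 for Psmb8, −0.02 to 0.55 for Psmb10 and −0.26 to 0.18 for Psme2. Every member had at least 545 reads in each library, and each group had 3 libraries.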

Other observations

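Markers of other cells gave these summed normalized counts, outside the comparisons of the members. Neutrophil markers, 6 genes of which 4 were at 0 in at least 1 library, had medians of 4472 in combined, 1036 in fusion protein, 3558 in 20 Gy and 247.2 in untreated libraries, with lowest and highest values of 1582 and 5156, 324.2 and 3684, 2730 and 4644, and 117.3 and 1584. Erythroid markers, 5 genes of which 3 were at 0 in at least 1 library, had medians of 305.5, 27.5, 2850 and 60 in the same order of groups, and all 3 of the 20 Gy libraries, at 2011 to 2897, were above the other 9 libraries. B cell markers, 6 genes with none at 0, had medians of 12966, 17594, 13807 and 13317 and overlapped in all groups. Tapbpl, the gene of the tapasin-related chaperone TAPBPR, had 828.9, 959.5 and 1137 normalized counts in combined, 834.5, 955.3 and 1127 in fusion protein, 380.1, 532.5 and 836.3 in 20 Gy, and 463.5, 961.1 and 1184 in untreated libraries, and library 3 was its highest in every group.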
